A study of Mus musculus with 4 samples.

Results

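Genes of the oligodendrocyte lineage and of myelin, the cells and sheaths that insulate axons of the spinal cord, were followed across 4 arrays. They are 36 genes taken from a fixed list of symbols, of 30222 gene names on the array, and the probe with the highest mean level stood for each. The arrays came from a screen for spinal genes whose daily rhythm depends on adrenal glucocorticoids after nerve injury. All mice were male ICR, an outbred stock, 5 to 6 weeks old by the study's methods, and all had partial sciatic nerve ligation (PSL), a model of neuropathic pain in which part of the nerve is tied, 7 days before the RNA was taken. In ADX+PSL mice the adrenal glands had been removed and saline was given to drink, whereas in sham+PSL mice the adrenals were exposed and kept. Each operation had 1 array at zeitgeber time 10 (ZT10, late in the light phase, when corticosterone of sham+PSL mice peaks) and 1 at ZT22 (late in the dark phase, when it has declined). RNA was from lumbar slices and not from sorted cells, so a value can hold RNA of glia, neurons and vessels. The number of mice behind an array and the side of the slice are not stated, and no array came from mice without nerve ligation.

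Oligodendrocytes arise from dividing progenitors that carry the receptor of platelet-derived growth factor, pass through a committed precursor stage, and then wrap axons with a membrane rich in galactolipids and a few abundant proteins. Factors of the Olig, Sox and Nkx families drive the steps, and the sheath is held together by adhesion, tight junction and gap junction proteins. Progenitors and myelinating cells both carry glucocorticoid receptors, and myelin genes are among the most strongly expressed genes of the cord.

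A level here is the authors' quantile-normalized intensity on the linear scale, in arbitrary units. All 36 members were well above background on every array, so each has a ratio in each comparison. With 1 array in a group there is no replicate check, and no p-value is given for a difference between arrays. The error printed is that of the spots as the image software estimates it, with a median of 0.20 for a member's log2 ratio. On the brightest probes it was 0.20 in every comparison for all members but *Lingo1*, at 0.27 to 0.32. It thus acts as nearly 1 fixed limit on the log2 ratio and does not measure each gene's own spread. It leaves out differences between mice and between slices. On single arrays, the 399 probes printed 10 times had a median SD over their spots between 0.044 and 0.06 in log2. In whole tissue, fewer cells of a type and less RNA per cell cannot be told apart.

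In sham+PSL most of the genes were lower at ZT10 than at ZT22. The log2 ratio of ZT10 over ZT22 was below 0 for 30 of 36 members, against 48.4% of the 25813 probes with a ratio, and its median was -0.27 against 0.01. The sign of this ratio was the same for each of the 36 members under all 6 other normalizations and background corrections tried. Differences were small: 21 members were lower by more than their spot error and 0 higher, against 17.3% and 18.1% of all probes. The spot error is larger for dim probes, and the members are bright. In sham+PSL at ZT10 their median level was 9907, against 105 over all probes on the array. Shares of all probes past the spot error, here and below, are thus not taken at 1 common limit. Past a ratio of 1.5, 3 members were lower and 0 higher, against 3.8% and 2.69% of all probes. The 3 are *Adamts4*, *Enpp6* and *Gpr17*. Without normalization between arrays *Gpr17* did not pass, at -0.57, and with the mean over a gene's probes *Adamts4* did not, at -0.48.

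In ADX+PSL the same comparison gave a median log2 ratio of -0.06, with 22 of 36 members below 0 against 49.8% of 25379 probes. Without normalization between arrays it was -0.19, with 29 of 36 below 0 against 68.5% of all probes, whose own median was then -0.10. On the authors' normalized values 9 members were lower by more than their spot error and 4 higher, against 15.9% and 15.6% of all probes. Past a ratio of 1.5 were 1 higher member, *Mal*, and 0 lower, with shares of 1.92% and 3.24% over all probes. The ratio was lower in sham+PSL than in ADX+PSL for 29 of 36 members, with a median difference of -0.26, and for 49.4% of all probes. With 1 array in a group this difference between the operations was not tested. In ADX+PSL the sign of the time ratio turned under at least 1 of the same 6 settings for *Cldn11*, *Tspan2*, *Ermn*, *Gjc3*, *Gjb1*, *Olig2*, *Sox10*, *Trf* and *Cryab*, none of which passed its spot error.

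The sham+PSL array at ZT22 held the highest level of 22 of the 36 genes. Of the rest, 1 was highest in sham+PSL at ZT10, and in ADX+PSL 5 were highest at ZT10 and 8 at ZT22. Over the 25012 probes well above background on every array, the shares were 25.5% (ZT10) and 24.4% (ZT22) for sham+PSL and 24.3% (ZT10) and 25.8% (ZT22) for ADX+PSL. The lowest level of 17 members lay on the sham+PSL array at ZT10, where 24.5% of all probes have theirs. The highest level of a member was a median of 1.27 times its lowest, against 1.23 over the 25012 probes. This range was under 1.5 for 30 of the 36 members, and the share of all probes under that limit was not counted.

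**Figure D1:**
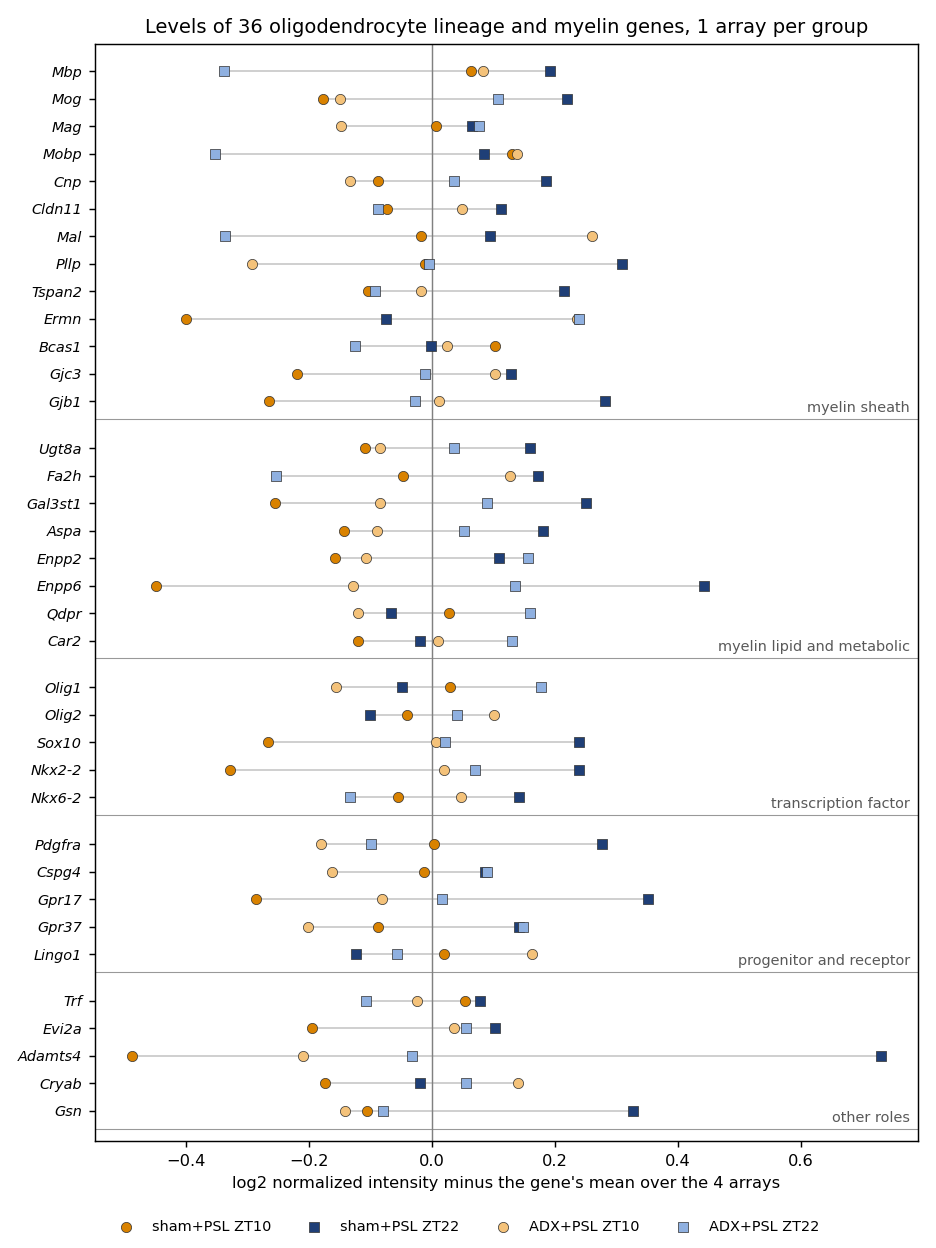
Levels of the 36 genes on the 4 arrays, as log2 normalized intensity minus each gene's own mean over the arrays (x axis), grouped by role, with circles for ZT10 and squares for ZT22, dark for sham+PSL and light for ADX+PSL. The dark square of sham+PSL at ZT22 lies farthest right for 22 genes, and the largest spread is that of *Adamts4*.

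The 13 genes of the sheath itself had a median log2 ratio of ZT10 over ZT22 of -0.27 in sham+PSL against 0.08 in ADX+PSL. *Mbp*, whose product joins the inner faces of the myelin membrane, had levels of 41482 (ZT10) and 45369.6 (ZT22) in sham+PSL against 42072 and 31430.4 in ADX+PSL. *Mobp*, another basic protein of compact myelin, had 27365 at ZT10 with 26515 at ZT22 for sham+PSL, then 27512 with 19572 for ADX+PSL. *Mal*, a small proteolipid of the sheath, had 57938 at ZT10 and 62613 at ZT22 in sham+PSL, and 70237 and 46470.4 at these times in ADX+PSL. On these probes the lowest of the 4 arrays was ADX+PSL at ZT22 for each gene. Their log2 ratios of ZT10 over ZT22 in ADX+PSL were 0.42 ± 0.20, 0.49 ± 0.20 and 0.60 ± 0.20 (spot error), against -0.13, 0.05 and -0.11 in sham+PSL. Only *Mal* passed a ratio of 1.5, at 1.51, and it did not when the arrays were scaled by the 75th percentile, as a pair, or not at all. The other probes of *Mbp* gave 0.20 and -0.04, and those of *Mobp* 0.57 and 0.08. The last of these, a dimmer probe of *Mobp*, had levels of 409.8 (ZT10) and 371 (ZT22) in sham+PSL against 593 and 561 in ADX+PSL, and was higher in ADX+PSL at ZT22, with a log2 ratio over sham+PSL of 0.60 against -0.44 on the brightest.

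*Mog*, a glycoprotein on the outer surface of the sheath, and *Cnp*, the cyclic nucleotide phosphodiesterase of noncompact myelin, were lower at ZT10 in both operations. The level of *Mog* was 4184 at ZT10 with 5514 at ZT22 for sham+PSL, then 4268 with 5097 for ADX+PSL. That of *Cnp* was 27964 at ZT10 and 33815 at ZT22 in sham+PSL, and 27089.5 and 30473 at these times in ADX+PSL. Both ZT22 arrays lay above both ZT10 arrays for either gene, though for *Cnp* in ADX+PSL by less than the spot error, with log2 ratios of -0.40 ± 0.20 and -0.26 ± 0.20 for *Mog* and -0.27 ± 0.20 and -0.17 ± 0.20 for *Cnp*. *Pllp*, which encodes the proteolipid plasmolipin, had levels of 7141 (ZT10) and 8918 (ZT22) in sham+PSL against 5871 and 7169.8 in ADX+PSL. It was lower at ZT10 in both operations (-0.32 and -0.29) and lower in ADX+PSL at both times (-0.28 and -0.31).

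The connexin genes *Gjb1*, whose product links the layers of the sheath, and *Gjc3* were lowest on the sham+PSL array at ZT10. *Gjb1* had levels of 9093 at ZT10 with 13287 at ZT22 for sham+PSL, then 11012 with 10724 for ADX+PSL. *Gjc3* had 1015 at ZT10 and 1293 at ZT22 in sham+PSL, and 1270.1 and 1173 at these times in ADX+PSL. The log2 ratio of ZT10 over ZT22 was -0.55 ± 0.20 and -0.35 ± 0.20 in sham+PSL, and 0.04 and 0.11, within the spot error, in ADX+PSL. The tetraspanin gene *Tspan2* showed the same order of sham+PSL values, at 13498, 16829, 14335 and 13607 (the sham+PSL pair, then the ADX+PSL pair, ZT10 before ZT22 in each), with a log2 ratio of -0.32 on its brighter probe and -0.45 on the other.

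*Ermn* encodes ermin, a cytoskeletal protein of mature oligodendrocytes, and differed between the operations. Its levels were 11847 (ZT10) and 14841 (ZT22) in sham+PSL against 18399 and 18457 in ADX+PSL. Both ADX+PSL arrays lay above both sham+PSL arrays, with a log2 ratio of ADX+PSL over sham+PSL of 0.64 ± 0.20 at ZT10, a ratio of 1.55, and 0.31 ± 0.20 at ZT22. Its other probe, 2916 bases away, had 8228 at ZT10 with 8586 at ZT22 for sham+PSL, then 9563 with 8697 for ADX+PSL, with log2 ratios of 0.22 and 0.02. The ratio at ZT10 did not pass 1.5 with the mean of both probes, at a log2 ratio of 0.43, or without normalization between arrays, at 0.57.

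The remaining sheath genes moved little. *Mag*, an adhesion molecule on the membrane facing the axon, had log2 ratios of ZT10 over ZT22 of -0.06 in sham+PSL against -0.22 in ADX+PSL from levels of 46949.9, 48874, 42182 and 49258. *Cldn11*, the claudin of myelin tight junctions, had -0.18 and 0.14 from 31525, 35826, 34304 and 31206. *Bcas1*, a marker of early myelinating cells, had 0.10 and 0.15 from 34234, 31869.7, 32450.2 and 29265. Except for *Mag* in ADX+PSL, these values were within the spot error.

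Among the 8 genes of myelin lipids and metabolism, the log2 ratio of ZT10 over ZT22 was below 0 for 7 in sham+PSL, against 48.4% of all probes, with a median of -0.27, and it passed the spot error for 6 of them, against 17.3%. In ADX+PSL it was below 0 for 7, against 49.8%, with a median of -0.16, and passed the spot error for 3, against 15.9%. *Enpp6*, a choline-specific phosphodiesterase that marks newly formed oligodendrocytes, had the widest range. Its level was 317 at ZT10 and 589 at ZT22 in sham+PSL, and 396 and 476 at these times in ADX+PSL. Sham+PSL at ZT22 was highest and sham+PSL at ZT10 lowest, with both ADX+PSL arrays between them. The level was 1.86-fold lower at ZT10 in sham+PSL, a log2 ratio of -0.89 ± 0.20, against -0.26 ± 0.20 in ADX+PSL. A second probe, 25200 bases away on the genome, had 257 (ZT10) and 336 (ZT22) in sham+PSL against 279 and 396 in ADX+PSL, with log2 ratios of -0.39 and -0.51. Both probes were lower at ZT10 in both operations, whereas they differed on ADX+PSL over sham+PSL at ZT22, with -0.31 on the brighter and 0.24 on the other.

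Enzymes that build the galactolipids of myelin were lower at ZT10 in sham+PSL by more than the spot error as well. *Gal3st1*, the sulfotransferase of sulfatide synthesis, had levels of 3220.1 at ZT10 with 4574 at ZT22 for sham+PSL, then 3625 with 4087 for ADX+PSL. *Ugt8a*, which adds galactose to ceramide, had 6768 at ZT10 and 8152 at ZT22 in sham+PSL, and 6890.4 and 7482 at these times in ADX+PSL. *Fa2h*, which hydroxylates the fatty acids of these lipids, had 13099 (ZT10) and 15254 (ZT22) in sham+PSL against 14774 and 11350.3 in ADX+PSL. The log2 ratios of ZT10 over ZT22 in sham+PSL were -0.51 ± 0.20, -0.27 ± 0.20 and -0.22 ± 0.20. In ADX+PSL they were -0.17, -0.12 and 0.38, and only that of *Fa2h* was past the spot error.

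*Aspa*, which releases acetate from N-acetylaspartate for lipid synthesis, had levels of 3991, 4999, 4146 and 4570.1 in the array order used for *Tspan2*, and *Enpp2*, the lysophospholipase autotaxin, had 28507, 34304, 29506 and 35405. Their log2 ratios of ZT10 over ZT22 were -0.33 and -0.27 in sham+PSL against -0.14 and -0.26 in ADX+PSL. *Enpp2* was thus lower at ZT10 by nearly the same amount in both operations, with ADX+PSL over sham+PSL at 0.05 and 0.05. *Qdpr*, a reductase that regenerates a pterin cofactor, went from 38729.5 at ZT10 to 36263 at ZT22 in sham+PSL and from 34942 to 42446 in ADX+PSL. Its log2 ratio of ZT10 over ZT22 was 0.09 in sham+PSL, within the spot error, and -0.28 ± 0.20 in ADX+PSL, and its other probe gave 0.14 and -0.36. *Car2*, a carbonic anhydrase that red cells also carry, had 26262, 28145, 28742 and 31230.2 and log2 ratios of -0.10 and -0.12.

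The 5 transcription factors divide into those with a difference in sham+PSL and those without. *Sox10*, needed for the last steps of differentiation, had levels of 4398 at ZT10 with 6243 at ZT22 for sham+PSL, then 5316 with 5369 for ADX+PSL. *Nkx2-2*, a homeobox factor of the differentiating precursor, had 396 at ZT10 and 586 at ZT22 in sham+PSL, and 504 and 522 at these times in ADX+PSL. For both, sham+PSL at ZT10 was lowest, sham+PSL at ZT22 highest, and the ADX+PSL arrays lay between them and close together. The log2 ratios of ZT10 over ZT22 were -0.51 ± 0.20 and -0.57 ± 0.20 in sham+PSL against -0.01 and -0.05 in ADX+PSL. A second probe of *Nkx2-2*, which starts 5642 bases away, gave -0.28 and -0.37. On ADX+PSL over sham+PSL at ZT10 it gave -0.40 against 0.35 on the brighter. Which transcripts these 2 probes read was not tested.

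The basic helix-loop-helix factors *Olig1* and *Olig2*, which set the lineage, did not share this order. The level of *Olig1* was 14475 (ZT10) and 13714 (ZT22) in sham+PSL against 12736 and 16046 in ADX+PSL. That of *Olig2* was 1137 at ZT10 with 1090.2 at ZT22 for sham+PSL, then 1253 with 1202 for ADX+PSL. Neither was lower at ZT10 in sham+PSL, where the log2 ratios were 0.08 and 0.06, both within the spot error. *Olig1* was lower at ZT10 in ADX+PSL, with -0.33 ± 0.20. *Nkx6-2*, a homeobox gene of the lineage, had 746, 855, 801 and 707 and log2 ratios of -0.20 in sham+PSL against 0.18 in ADX+PSL, both within the spot error.

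The comparisons are between times of day and between states of the adrenal, so the bases before the transcription start were searched for the E-box CACGTG that clock factors bind, for the glucocorticoid response element (AGAACA, 3 free bases, then TGTTCT), for the single site AGAACA, and for the SOX motif ACAAAG, on both strands; the single site and the full element overlap by construction. RefSeq promoters of GRCm38.p6, cropped to the 250 bases before the start and matched by symbol, were used for 24 of the 36 members, with 35 entries. The other 12 members are outside these counts. The E-box was in 1 of the 35 against 6.02% of all 32851 promoters, and the full response element in 0 against 0.00913%. Only 3 of all promoters held the full element, so its absence from 35 entries says nothing about the members. The study lists the element of its own target *Sgk-1* further upstream than this window reaches. The single site was in 3 (8.57%) against 16.1%, and the SOX motif in 7 (20%) against 16.5%. The sequences are the promoter of *Enpp6*, the member with a promoter entry and the widest sham+PSL difference, and those of the members whose most upstream entry holds an E-box or a single receptor site, *Nkx2-2* and *Gjb1*, with every match in capitals.
Enpp6 (chr8:46986637-46986886, plus strand): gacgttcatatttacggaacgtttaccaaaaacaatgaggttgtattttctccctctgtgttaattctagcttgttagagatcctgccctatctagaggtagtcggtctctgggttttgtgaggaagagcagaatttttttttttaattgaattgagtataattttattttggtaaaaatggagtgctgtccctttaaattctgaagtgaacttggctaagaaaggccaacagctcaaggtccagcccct
Nkx2-2 (chr2:147186403-147186652, minus strand): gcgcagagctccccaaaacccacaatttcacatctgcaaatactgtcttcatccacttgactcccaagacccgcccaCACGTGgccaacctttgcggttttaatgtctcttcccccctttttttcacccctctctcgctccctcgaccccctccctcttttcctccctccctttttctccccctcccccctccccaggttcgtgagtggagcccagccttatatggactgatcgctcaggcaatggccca
Gjb1 (chrX:101376126-101376375, plus strand): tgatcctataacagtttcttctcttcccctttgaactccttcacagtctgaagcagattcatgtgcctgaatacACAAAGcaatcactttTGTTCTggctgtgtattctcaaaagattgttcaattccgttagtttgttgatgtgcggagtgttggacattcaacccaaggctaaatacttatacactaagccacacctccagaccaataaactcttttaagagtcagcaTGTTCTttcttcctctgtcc
In *Nkx2-2* the capitals are the E-box, 173 bases before the start. In *Gjb1* they are the SOX motif 176 bases before the start and the single receptor site on the other strand at 160 and 20 bases. A match is a string of letters and says nothing of a bound factor, and the *Enpp6* window holds none of the motifs searched.

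Among the genes of progenitors and of receptors, *Gpr17*, a G protein-coupled receptor of committed precursors that is lost on maturation, differed most. Its level was 10722 at ZT10 and 16673 at ZT22 in sham+PSL, and 12361 and 13223 at these times in ADX+PSL. The sham+PSL arrays were the lowest and the highest, 1.56-fold apart, with a log2 ratio of ZT10 over ZT22 of -0.64 ± 0.20, against -0.10 ± 0.20 in ADX+PSL. *Pdgfra*, the growth factor receptor of dividing progenitors that fibroblasts carry too, had 982 (ZT10) and 1187 (ZT22) in sham+PSL against 865 and 915 in ADX+PSL. It was highest in sham+PSL at ZT22, with -0.27 ± 0.20 for ZT10 over ZT22 in sham+PSL and -0.38 ± 0.20 for ADX+PSL over sham+PSL at ZT22.

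*Cspg4*, the proteoglycan of progenitors and pericytes, had levels of 644, 689.8, 580.4 and 691, and *Gpr37*, a receptor of maturing oligodendrocytes, had 6833, 8011, 6309.8 and 8039. The log2 ratios of ZT10 over ZT22 were -0.10 and -0.23 in sham+PSL against -0.25 and -0.35 in ADX+PSL, so both were below 0 in each operation on these probes. The other probe of *Gpr37* is dim, with levels of 38.5 at ZT10 with 46.0 at ZT22 for sham+PSL, then 32.6 with 31.6 for ADX+PSL. Its log2 ratios of ZT10 over ZT22, -0.26 in sham+PSL against 0.04 in ADX+PSL, lay within spot errors of 0.26 and 0.32, and ADX+PSL over sham+PSL at ZT22 was -0.54 ± 0.32. *Lingo1*, an inhibitor of differentiation that neurons express strongly, had the lowest levels among the brightest probes of the members, at 39.6, 35.9, 43.8 and 37.6. Its differences were within a spot error of 0.29 in sham+PSL against 0.30 in ADX+PSL.

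*Adamts4*, a secreted protease that cleaves proteoglycans of the extracellular matrix, had the largest difference of all 36 genes. The level was 1754 at ZT10 and 4080.1 at ZT22 in sham+PSL, and 2126 and 2406 at these times in ADX+PSL. The sham+PSL array at ZT22 was far above the other 3. ZT10 was 2.33-fold lower than ZT22 in sham+PSL, a log2 ratio of -1.22 ± 0.20, against -0.18 ± 0.20 in ADX+PSL. At ZT22 the ADX+PSL level was 1.70-fold lower than the sham+PSL level, with a log2 ratio of -0.76 ± 0.20. Its second probe did not show this: 757 bases away, on a transcript of another accession, it had 841 (ZT10) and 704 (ZT22) in sham+PSL against 967 and 948 in ADX+PSL, with log2 ratios of 0.26 for ZT10 over ZT22 in sham+PSL and 0.43 at ZT22 between the operations. The brighter probe lies at chr1:173189952-173190011, plus strand, in mm9. Which transcripts either probe reads was not tested.

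Of the other members with further roles, *Gsn* and *Evi2a* were lower at ZT10 in sham+PSL by more than the spot error. *Gsn*, the actin-severing protein gelsolin that oligodendrocytes and fibroblasts make, had levels of 23769 at ZT10 with 32056 at ZT22 for sham+PSL, then 23170.4 with 24206 for ADX+PSL. Sham+PSL at ZT22 was above the other 3 arrays, with a log2 ratio of ZT10 over ZT22 of -0.43 ± 0.20 and, on a probe that starts 16 bases away and overlaps it, -0.58. *Evi2a* had 5217, 6411, 6124 and 6206 and a log2 ratio of -0.30 ± 0.20. *Trf*, the iron carrier transferrin, had 88862, 90466, 84209 and 79528, and *Cryab*, a small heat shock protein, 24849, 27668, 30889 and 29141, with log2 ratios of -0.03 and -0.16, both within the spot error. *Cryab* was higher in ADX+PSL at ZT10, with 0.31 ± 0.20, and 0.18 on its other probe.

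**Figure D2:**
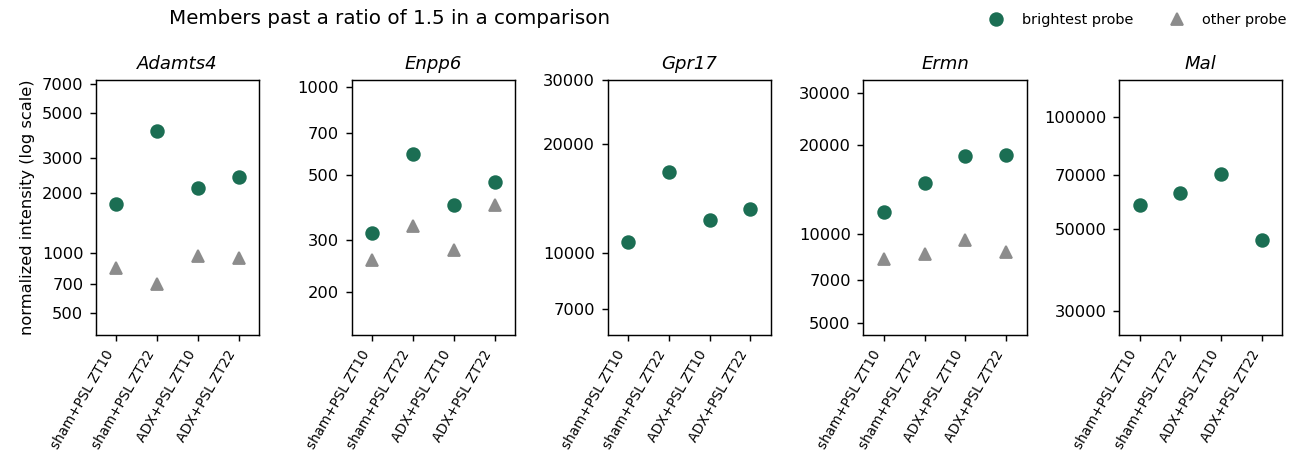
Normalized intensity (y axis, log scale) on each array (x axis) of the 5 members past a ratio of 1.5 in at least 1 comparison, with green circles for the brightest probe and grey triangles for the other probe where there is one. The circle of *Adamts4* in sham+PSL at ZT22 stands apart while its triangle there is the lowest of the 4.

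How far a ratio depends on the probe could be seen for the 12 members with more than 1 probe, which form 14 pairs of a brightest and another probe. On ZT10 over ZT22 in sham+PSL, 13 of the 14 pairs had the same sign, the exception being *Adamts4*, and the median gap between the log2 ratios of a pair was 0.12. In ADX+PSL 9 pairs had the same sign, with a median gap of 0.17. For ADX+PSL over sham+PSL it was 11 pairs at ZT10 and 10 at ZT22, with median gaps of 0.13 and 0.20. Each median gap was no larger than the spot error, and the largest gap, of 1.47, was that of *Adamts4* in sham+PSL.

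Set against sham+PSL at the same time, most members differed by less than their spot error. It was passed at ZT10 by 11 higher and 1 lower, against 17.4% and 15.7% of all probes. At ZT22 it was passed by 3 higher and 14 lower, against 19.1% and 16.6%. The median log2 ratio was 0.10 at ZT10, with 11 of 36 below 0 against 50.2% of 26416 probes. At ZT22 it was -0.16, with 25 below 0 against 48% of 25144. Without normalization between arrays the median was 0.04 at ZT10, with 15 below 0 against 60.5% of all probes. At ZT22 it was then -0.03, with 23 below 0 against 29.2%. On the authors' normalized values, past a ratio of 1.5 at ZT10 were 1 higher member, *Ermn*, and 0 lower, against 3.31% and 3.73% of all probes. At ZT22 it was 1 lower, *Adamts4*, and 0 higher, against 3.22% and 3.1%. In opposite directions at ZT10 and ZT22, each past its spot error, were 6 members, against 5.08% of all probes. For ZT10 over ZT22 in the operations it was 1, *Fa2h*, against 5.39%. These comparisons share each of their arrays with a comparison between times, so they are the same 4 levels read another way. The sign turned under another normalization or background correction for *Mog*, *Mobp*, *Cnp*, *Ugt8a*, *Aspa* and *Trf* at ZT10 and for *Bcas1*, *Gpr37* and *Evi2a* at ZT22, none of them past the spot error.

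The study's own limits, a ratio of 2 with a Z-score of 2 or their inverse, were passed by 1 member in 1 comparison: *Adamts4*, lower at ZT10 in sham+PSL, with a Z-score of -2.04 on the values used here. Over all probes they were passed by 0.783% lower and 0.519% higher there, and by 0.812% and 0.366% in ADX+PSL. For ADX+PSL over sham+PSL the shares were 0.946% lower and 0.488% higher at ZT10 and 0.581% and 0.441% at ZT22, with 0 members in each.

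**Figure D3:**
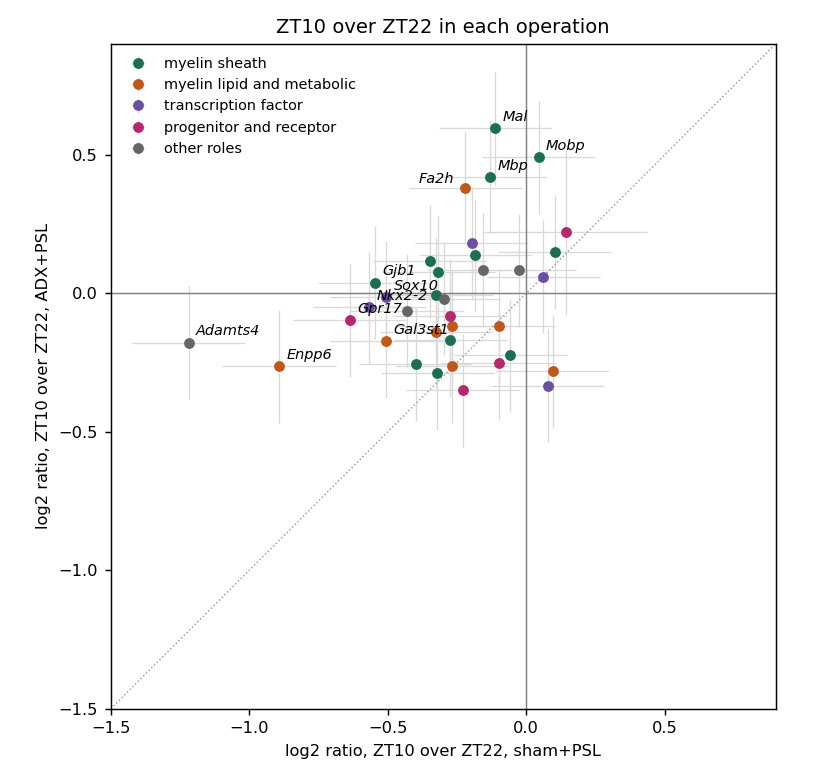
Log2 ratio of ZT10 over ZT22 in sham+PSL (x axis) and in ADX+PSL (y axis) for the 36 genes, coloured by role, with spot errors as grey bars and equal ratios on the dotted line. Of the points, 29 lie above the line, and *Adamts4* and *Enpp6* lie farthest left.

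Other genes of the same cells showed a like shift in sham+PSL. Of 30 further genes of mature oligodendrocytes, 29 had a ratio there, 26 of them below 0, against 48.4% of all probes, with a median log2 ratio of ZT10 over ZT22 of -0.28. In ADX+PSL 18 of 30 were below 0, against 49.8%, with a median of -0.04. Past a ratio of 1.5, 4 were lower in sham+PSL, which are *Opalin*, *Hapln2*, *Ninj2* and *Sgk2*, against 3.8% of all probes. In ADX+PSL 2 were, *Ninj2* and *Nipal4*, against 3.24%. *Nipal4* is dim, at 19.8 and 77.6 in ADX+PSL with a log2 ratio of -1.97 ± 0.29 that also passed the study's limits, and had no ratio in sham+PSL because it was not well above background at ZT10. *Opalin*, *Hapln2* and *Nipal4* were named after their values were seen. *Plekhb1*, a membrane protein gene, had 77347, 78865, 78666 and 89840.1. *Ninj2*, an adhesion molecule, had 932 at ZT10 and 1794 at ZT22 in sham+PSL, and 659 and 1059 at these times in ADX+PSL, and *Sgk2*, a kinase, had 1122 (ZT10) and 1804 (ZT22) in sham+PSL against 1087 and 1149.6 in ADX+PSL. Both were highest in sham+PSL at ZT22, with log2 ratios of ZT10 over ZT22 of -0.95 and -0.69 in sham+PSL against -0.68 and -0.08 in ADX+PSL.

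The 15 further genes of progenitors and committed precursors had a median of -0.38 in sham+PSL, with 13 below 0 against 48.4% of all probes, and -0.14 in ADX+PSL, with 14 below 0 against 49.8%. *Bmp4*, a growth factor of the committed precursor, had levels of 818 at ZT10 with 1385 at ZT22 for sham+PSL, then 578 with 854 for ADX+PSL. It was lower at ZT10 in both operations and lower in ADX+PSL at both times, with log2 ratios of -0.76 and -0.56 for time and -0.50 and -0.70 for operation. *Vcan*, a matrix proteoglycan, had 473, 656, 439 and 469.7, *Itpr2*, a calcium channel of the precursor, 3235, 4196, 3296 and 3329, and *Lhfpl3* 1248, 1464, 1247 and 1444. All 3 were lower at ZT10 in sham+PSL, with -0.47, -0.38 and -0.23.

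The medians of 3 further lists lay nearer 0 in sham+PSL, and the lists were not tested against each other. The 8 other oligodendrocyte transcription factors had medians of -0.11 in sham+PSL against -0.06 in ADX+PSL. In sham+PSL *Sox8* had -0.44, *Zeb2* -0.37, *St18* -0.18 and *Zfp536* -0.01. Of the 12 lipid enzymes that many cells use, *Psap*, *Gpd1*, *Sptlc2* and *Kdsr* had 0.04, 0.16, -0.04 and -0.07, and the medians of the list were -0.06 and -0.03. The 8 genes of the junction between axon and glia, most of them shared with neurons, had medians of 0.08 and -0.02, with *Cntn1* at -0.03, *Nfasc* at -0.17, *Cadm3* at 0.39 and *Cadm4* at -0.32 in sham+PSL.

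Markers of other cell types moved between the same arrays, and their part in the members' differences was not tested. All 10 microglial genes were well above background on every array, with *Itgam* the brightest, and their summed level was 93294, 118972, 92943 and 98261 in the array order used for *Tspan2*. Their median log2 ratio of ZT10 over ZT22 was -0.42 in sham+PSL, with 10 of 10 below 0, and -0.31 in ADX+PSL, and that of ADX+PSL over sham+PSL was -0.23 at ZT10 and -0.40 at ZT22. The highest sum was on the sham+PSL array at ZT22, as was the highest level of 22 members. *C1qa* and *C1qb*, of the complement cascade, had -0.49 and -0.51 in sham+PSL, *Csf1r* -0.38 and *Itgam* -0.26.

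Neuronal genes lay on the other side. All 11 were well above background on each array, *Nefh* being the brightest, and they summed to 390915, 356673, 367921 and 333374. Their median was 0.14 in sham+PSL against 0.15 in ADX+PSL, with *Nefl*, *Nefm* and *Nefh*, the neurofilaments, at 0.14, 0.41 and 0.16 in sham+PSL and *Tubb3* at -0.05. The 9 astrocyte genes, led by *Aldoc*, were well above background on every array and summed to 319876, 314287, 337441 and 302731, with medians of -0.13 and 0.10; in ADX+PSL *Gfap* had -1.07, *S100b* -0.15, *Gjb6* 0.51 and *Aldoc* 0.38. The 7 endothelial genes, led by *Ly6c1*, summed to 16262, 13182, 14865 and 18885, with medians of -0.02 and -0.37; in sham+PSL *Ly6c1* had 0.84, *Flt1* -0.02, *Cldn5* -0.36 and *Cdh5* -0.25.

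Schwann cells myelinate peripheral axons. Of 10 Schwann cell genes, 8, 7, 6 and 5 were well above background on the 4 arrays in turn, their sum was 10103, 10920.0, 8409 and 9943, and most of it was *Pmp22*, which central cells also make. *Pmp2* and *Scn7a* were well above background on no array. *Prx*, which encodes the Schwann cell protein periaxin, had 466 at ZT10 and 247 at ZT22 in sham+PSL, and 40.9 and 36.3 at these times in ADX+PSL, with log2 ratios of ADX+PSL over sham+PSL of -3.51 and -2.77, larger than the ratio of any member. *Ncmap* had 1047, 879, 859 and 789 and *Cdh19* 116, 134, 95.2 and 112, with log2 ratios of ADX+PSL over sham+PSL of -0.29 and -0.29 at ZT10.

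The members that other cells also make can be set beside the markers of those cells. The 14 meningeal fibroblast genes summed to 44696, 51012, 30192 and 31414. Most of each sum was the member *Gsn*, at 23769, 32056, 23170.4 and 24206, so the sums are not independent of it. In sham+PSL *Gsn* differed between the times by more than the sum did. The list had median log2 ratios of ADX+PSL over sham+PSL of -1.61 at ZT10 and -1.75 at ZT22. *Dcn* had -1.60 and -1.25, *Col1a2* -1.52 and -1.13, *Col1a1* -2.43 and -2.31 and *Ogn* -3.11 and -3.42. *Gsn* itself had -0.04 and -0.41, and *Pdgfra* -0.18 and -0.38. The 8 red cell genes summed to 162177, 46917, 123820.0 and 121045, with *Hba-a2* the brightest except in sham+PSL at ZT22, where *Car2* was. These sums include the member *Car2*, at 26262, 28145, 28742 and 31230.2, which made up most of the sum in sham+PSL at ZT22. The list had a median of 3.05 for ZT10 over ZT22 in sham+PSL. *Car2* had -0.10 there, where *Hba-a1*, *Hba-a2*, *Hbb-b1* and *Hbb-b2* had 3.08, 2.73, 3.05 and 3.10. The 9 genes of pericytes and smooth muscle, led by *Rgs5*, summed to 4591, 3861, 3739 and 4431, with medians of 0.31 and -0.03 for time; in sham+PSL *Rgs5* had 0.20, *Tagln* 0.31, *Acta2* 0.92 and *Cnn1* 0.31, and *Cspg4* had -0.10.

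**Figure D4:**
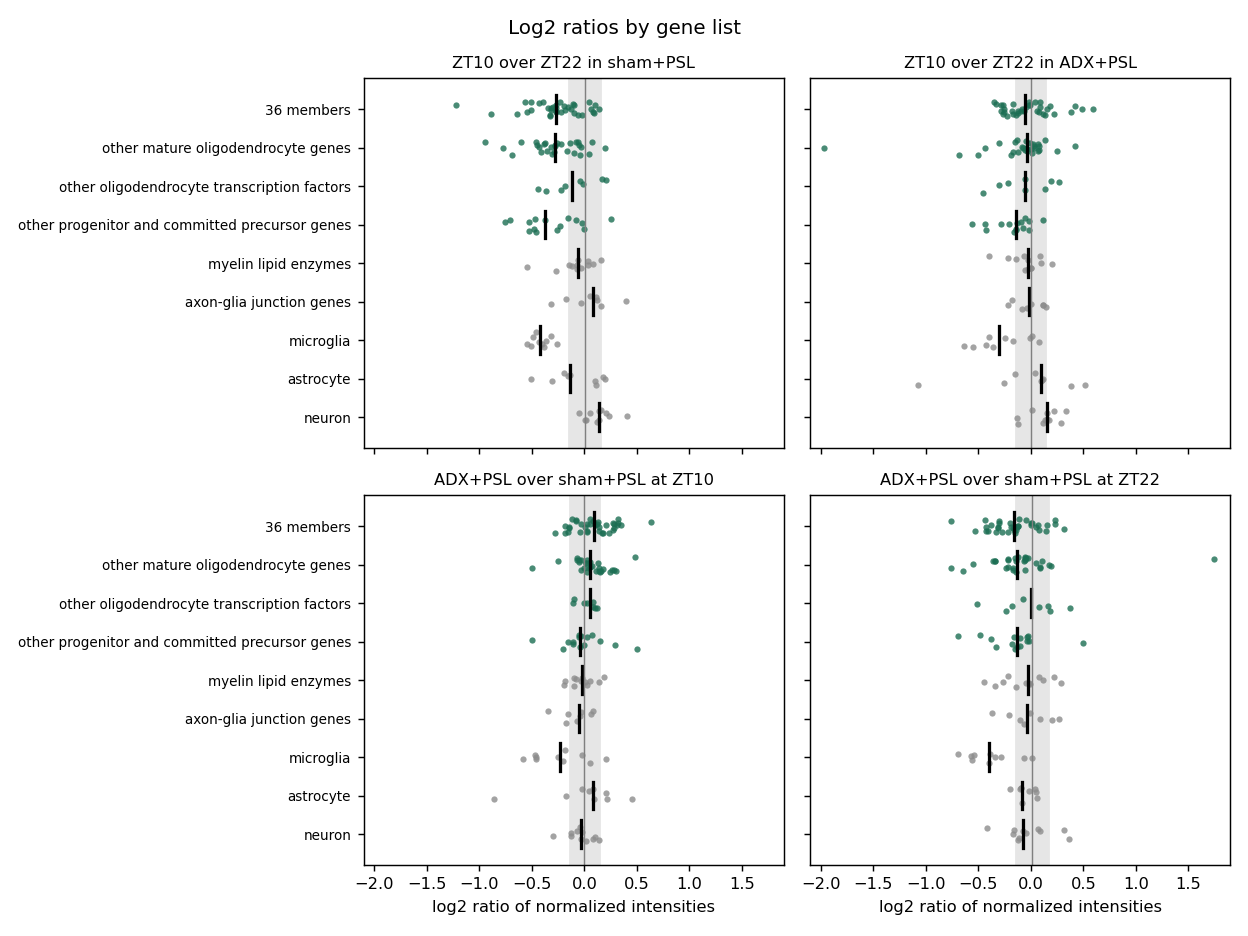
Log2 ratios (x axis) of single genes as points and of each list's median as a black bar in the 4 comparisons, with the list on the y axis, the lists of the oligodendrocyte lineage in green, and the range between the lower and upper quartile of all probes as a grey band with their median as a line. In sham+PSL the medians of the members, the other mature genes, the other precursor genes and the microglial genes lie left of the band, and of these only the microglial median lies outside it in ADX+PSL.

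The members were tested with an additive model of operation and time, which takes as error whatever the time effect differs by between sham+PSL and ADX+PSL. With limma over 28845 probes and Benjamini-Hochberg adjustment, 0 members and 0 probes (0%) had an adjusted p under 0.05 for operation or for time. At an unadjusted p under 0.05 were 0 members for either effect, against 6.25% of all probes for operation and 4.92% for time. These zeros depended on the settings: with an intensity trend in the variance 8 members were at an unadjusted p under 0.05 for time and 2 for operation, against 5.99% and 7.69% of all probes, and 0 at an adjusted p. The median coefficient of the members was -0.16 for ZT10 against ZT22 and -0.05 for ADX+PSL against sham+PSL, with a median SE of 0.15 and 1 residual degree of freedom. The smallest adjusted p of a member was 0.93 for time and 0.80 for operation.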

How the data were processed

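One-colour Agilent 44K arrays with mm9 probe annotation measured RNA of 4 samples, 1 array per group, on 1 slide. The deposited intensity table of the authors is linear and quantile-normalized, with the same sorted values on all 4 arrays and the spots of a probe combined. The study's methods describe this step for 2 samples at a time, so its own ratios and Z-scores may differ from those given here. The processed and mean signals are intensity values deposited from Agilent Feature Extraction, version 9.5.1.1 in the submitters' notes and 10.7.1.1 in the file headers. The other deposited columns used, per the file headers, are flags of 0 or 1 for spots well above background and for saturation. Of 39429 probes, 27097 (68.7%) and 26387 (66.9%) were well above background in sham+PSL at ZT10 and ZT22, and 27652 (70.1%) and 25658 (65.1%) in ADX+PSL. The number of arrays limits the precision. No spot was saturated (0 on each array).

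Members are probes whose gene name equals a listed symbol. A ratio was formed where both arrays were well above background. Its spot error combines the software's error of both signals. Limits were a ratio of 1.5 and the study's ratio of 2 with a Z-score of 2, the log2 ratio minus its mean over its SD across probes. The additive fit used limma 3.58.1 in R 4.3.3 and adjusted p-values by Benjamini-Hochberg over the 28845 probes that 1 or more arrays held well above background. Tables and figures used Python 3.11.15, pandas 2.3.3, numpy 2.4.6 and matplotlib 3.10.9, and the code was tested on simulated data. Alternatives changed the normalization, background correction, probe choice, filter, member list, limit and model terms.

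From each of the 13 other lists (151 genes, 151 matched, 2 by accession and 1 by an older symbol), the genes named were taken from the 2 with the highest mean level and the 2 with the largest difference between operations, among those well above background on all 4 arrays. Undetected markers were named after their values were seen. Of the members, 5 are also in lists of other cell types (*Pdgfra*, *Gsn*, *Cspg4*, *Car2* and *Lingo1*). The members and lists were chosen with earlier results of these data known. Promoters are from RefSeq, GRCm38.p6, and were not joined to mm9 coordinates. Entries of *Mbp* and *Gpr17* were left out of the member promoters by choice before motifs were counted. The background of all promoters was not cut in the same way.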

Additional observations from a re-analysis of the deposited data

Results flagged for a closer look

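For 7 genes the log2 ratio lay past its spot error in opposite directions in 2 comparisons of the same kind. With 1 array in a group, none of these differences was tested. Over all probes the share was 5.39% for ZT10 over ZT22 in the operations and 5.08% for ADX+PSL over sham+PSL at the times, and both read the same 4 arrays. *Fa2h* had a log2 ratio of ZT10 over ZT22 of -0.22 in sham+PSL against 0.38 in ADX+PSL, a difference of -0.60. On the brightest probe of 6 genes it was ADX+PSL over sham+PSL that was above 0 at ZT10 and below 0 at ZT22. *Adamts4* had 0.28 and -0.76, which differ by 1.04, and *Mal* had 0.28 and -0.43, which differ by 0.71. *Enpp6* had 0.32 and -0.31, a difference of 0.63, and *Gjb1* 0.28 and -0.31, a difference of 0.59. *Gpr17* had 0.21 and -0.33, a difference of 0.54, and *Sox10* 0.27 and -0.22, a difference of 0.49. The second probes of *Adamts4* (0.20 and 0.43) and *Enpp6* (0.12 and 0.24) were above 0 at both times. On the brightest probes the sham+PSL array at ZT22 was the highest of the 4 for *Adamts4*, *Enpp6*, *Gjb1*, *Gpr17* and *Sox10*, and their ratios share it. The spot error leaves out differences between mice, so it is a low bar.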

How the results depend on the processing

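Under the alternative settings 238 values moved by less than the spot error (medians and ratios) or at most 1.5 times (counts). The other 38 moved by more. Moves within this wide tolerance can be large beside a median near 0. A turn of direction was looked for here only in ratios of single members past 1.5, and 0 turned. Over all 36 members, other normalizations or background corrections turned the sign of the time ratio for 0 in sham+PSL and 9 in ADX+PSL. For ADX+PSL over sham+PSL they turned it for 6 at ZT10 and 3 at ZT22. A change of filter could not move the members' ratios, since all 36 were well above background on every array. The median log2 ratio of the members stayed between -0.28 and -0.19 for ZT10 over ZT22 in sham+PSL, between -0.19 and -0.02 in ADX+PSL, between 0.04 and 0.12 for ADX+PSL over sham+PSL at ZT10 and between -0.16 and -0.03 at ZT22. Without normalization between arrays the members' medians were -0.19 in ADX+PSL, with 29 below 0, and -0.03 for ADX+PSL over sham+PSL at ZT22, and the medians of all probes in these comparisons were -0.10 and 0.12.

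Under the study's limits the members lower at ZT10 in sham+PSL numbered 1 in place of 3, and they numbered 2 without normalization and 2 with the mean over a gene's probes. The 1 member higher at ZT10 in ADX+PSL became 0 under the study's limits, with arrays shifted by their 75th percentile, without normalization, and with quantile normalization of the 2 arrays compared. The 1 member higher in ADX+PSL at ZT10 became 0 under the study's limits, without normalization and with the mean over a gene's probes. The 1 member lower in ADX+PSL at ZT22 became 0 under the study's limits and with the mean over probes. That mean gave log2 ratios of -0.64 for *Enpp6* and -0.48 for *Adamts4* (ZT10 over ZT22, sham+PSL), 0.43 for *Ermn* (ZT10) and -0.17 for *Adamts4* (ZT22).

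In the limma fit, members at an adjusted p under 0.05 stayed at 0 for both effects under every alternative run. For operation, members at an unadjusted p under 0.05 numbered 1 without normalization, 2 with normexp, 2 with the uncorrected mean signal, 1 with only probes above background on all arrays, 2 with an intensity trend and 1 without the time term. For time they numbered 1 without normalization, 5 with normexp, 5 with the mean signal, 2 with the mean over probes, 2 with only probes above background on all arrays, 8 with a trend and 2 without the operation term. Over these settings the share of all probes at an unadjusted p under 0.05 lay between 5.65% and 8.8% for operation and between 4.36% and 6.59% for time (normexp 6.34%, mean signal 6.25%, trend 5.99%). Probes of any gene at an adjusted p under 0.05 numbered, for operation, 10 with normexp, 10 with the mean signal, 5 with the mean over probes, 13 with only probes above background on all arrays, 39 with a trend and 6 without the time term. For time they numbered 9, 8, 5, 11 and 14 under the first 5 of these. The cause of these changes was not tested.

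Quantile normalization of only 2 arrays was not run for the additive fit, which needs all 4. No paired analysis was possible because the labels match no array to another by animal. With 1 array per group, differences between mice, dissections and arrays cannot be told apart from those between groups. Among the brightest probes of the members, signal over background limits *Lingo1* most, with levels of 39.6, 35.9, 43.8 and 37.6.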
